A study of Mus musculus with 8 samples.

Results

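A set of 61 probe sets, which stand for 51 genes, was far brighter in whole prostate from 1 *Olfm4*-knockout mouse and 1 wild-type mouse than in prostate from the other 6 mice of the series. The members were chosen by their values. A probe set with exactly 1 gene symbol belonged to the set when the lower of its values on knockout array 1 and wild-type array 1 exceeded its highest value on the other 6 arrays by at least 1.5 on the log2 scale, a 2.83-fold difference. This difference is called the gap. Of 34945 probe sets with 1 symbol, 61 (0.175%) met the rule, and they belong to 51 of 18193 genes. The contrast of these 2 arrays with the other 6 is what chose the members, so their values are given as a description and were not tested.

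The 8 mice were 3 months old, 4 *Olfm4*-knockout (*Olfm4*-/-) and 4 wild-type (*Olfm4*+/+), with 1 mouse on each array, on a mixed background of which 50% came from 129/SV mice and 50% from Black Swiss mice of the National Institutes of Health. The line was kept by crossing heterozygotes, and no tissue-specific driver is named. The labels give 4 mice per genotype, whereas the design text gives 5. The deposited values are on the log2 scale, so a difference of 1 is a doubling of signal, and they ran from 2.24 to 14.79 with array medians of 6.03 to 6.09. The labels carry 2 array dates with 2 arrays of each genotype on each, and knockout 1 was run on the second and wild-type 1 on the first. The targeted gene separated the genotypes on every array. *Olfm4* was at 3.09, 3.00, 3.25 and 3.09 on the knockout arrays, against 10.32, 10.23, 10.74 and 10.65 on the wild-type arrays, so knockout 1 and wild-type 1 carried the genotype of their labels. Correlations between arrays ran from 0.983 to 0.996, with knockout 1 the least like the rest (mean 0.984, against 0.990 to 0.993 for the others).

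The seminal vesicles are glands that lie against the anterior prostate and drain with it into the urethra. In rodents they secrete most of the volume of semen. Their major secretory proteins, the SVS proteins, are cross-linked by a transglutaminase made in the prostate, and this clots semen into the copulatory plug. The genes of these proteins depend on androgens and are transcribed at very high levels. The glands arise from the Wolffian duct, as do the epididymis and vas deferens, whereas the prostate arises from the urogenital sinus. Fat and the ganglia of the pelvic nerves lie beside both organs. Since whole tissue was measured, more cells of a type and more RNA per cell cannot be told apart.

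The promoters of the SVS genes are shown first, because these genes lie side by side on chromosome 2 and several share one start-proximal element. Each sequence is the 100 bases just before the RefSeq start of the gene in GRCm38.p6, 5′ to 3′ on the strand of the gene, with the letters TATAAA in capitals. *Sva*, on chromosome 6, is shown for comparison. The windows are chr2:164238342-164238441 on the minus strand for *Svs2*, chr2:164278308-164278407 on the minus strand for *Svs4*, chr2:164289167-164289266 on the plus strand for *Svs3a*, chr2:164316651-164316750 on the plus strand for *Svs6*, chr2:164332665-164332764 on the plus strand for *Svs5* and chr6:42038294-42038393 on the plus strand for *Sva*.
Svs2: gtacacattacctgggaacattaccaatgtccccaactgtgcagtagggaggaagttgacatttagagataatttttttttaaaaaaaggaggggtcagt
Svs4: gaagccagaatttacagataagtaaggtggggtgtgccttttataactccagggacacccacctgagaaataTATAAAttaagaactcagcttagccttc
Svs3a: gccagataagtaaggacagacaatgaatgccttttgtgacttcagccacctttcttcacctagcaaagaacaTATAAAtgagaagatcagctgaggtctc
Svs6: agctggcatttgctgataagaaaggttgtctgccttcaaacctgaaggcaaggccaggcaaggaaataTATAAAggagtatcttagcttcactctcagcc
Svs5: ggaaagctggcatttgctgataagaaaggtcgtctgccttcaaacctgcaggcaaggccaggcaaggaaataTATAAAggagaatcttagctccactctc
Sva: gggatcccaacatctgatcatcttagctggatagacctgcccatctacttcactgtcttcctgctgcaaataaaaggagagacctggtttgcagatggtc

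TATAAA began 28 bases before the start in *Svs4*, *Svs3a* and *Svs5* and 32 bases before it in *Svs6*, and these letters are not in the windows printed for *Svs2* and *Sva*. RefSeq promoters were at hand for 39 of the 51 member genes. On the gene's strand and between 45 and 20 bases before the start, TATAAA was found in 5 of the 39 (12.8%; *Rbp4* beside the 4 SVS genes), against 668 of 27025 promoters of all genes (2.47%). Anywhere in the 250 bases before the start and on both strands, it was found in 9 of 39 (23.1%), against 14.3% of all promoters. TGTTCT, the hexamer of androgen and glucocorticoid response elements, was found on either strand of the same window in 9 of 39 (23.1%), against 18.2%. These promoters are not independent of each other. Over 250 bases, those of *Svs5* and *Svs6* were 93.3% identical, those of *Svs3a* and *Svs4* 60.7% identical, and that of *Svs2* was 45.6% to 51.2% identical with those of the other SVS genes of the run.

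The gaps of the 61 probe sets ran from 1.51 to 7.98, with a median of 2.18. The mean of the 2 arrays minus the mean of the other 6 was between 1.87 and 8.79 over the members, with a median of 3.16, whereas its median over all 45037 probe sets was -0.03. In 18 member probe sets the other 6 arrays averaged under 5, near the floor of the arrays, while 16 members were at 12 or above on both knockout 1 and wild-type 1. The 51 genes had 84 probe sets in all, and the other 23 fell short of the rule, among them a brighter probe set than the member one for *Abcd2*, *Bpgm*, *Hpca*, *Prdm16* and *Tfap2b*. A further 4 probe sets met the threshold without a single symbol, and 2 of them carry *Svs3a* and *Svs3b* together. The rule had no mirror image. No probe set was lower on both arrays than on the other 6 by 1 or more, and the widest such gap was 0.77, at *Czib*. With no minimum distance, both arrays lay above the other 6 in 1887 of 34945 probe sets (5.4%) and below them in 1818 (5.2%).

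**Figure D1:**
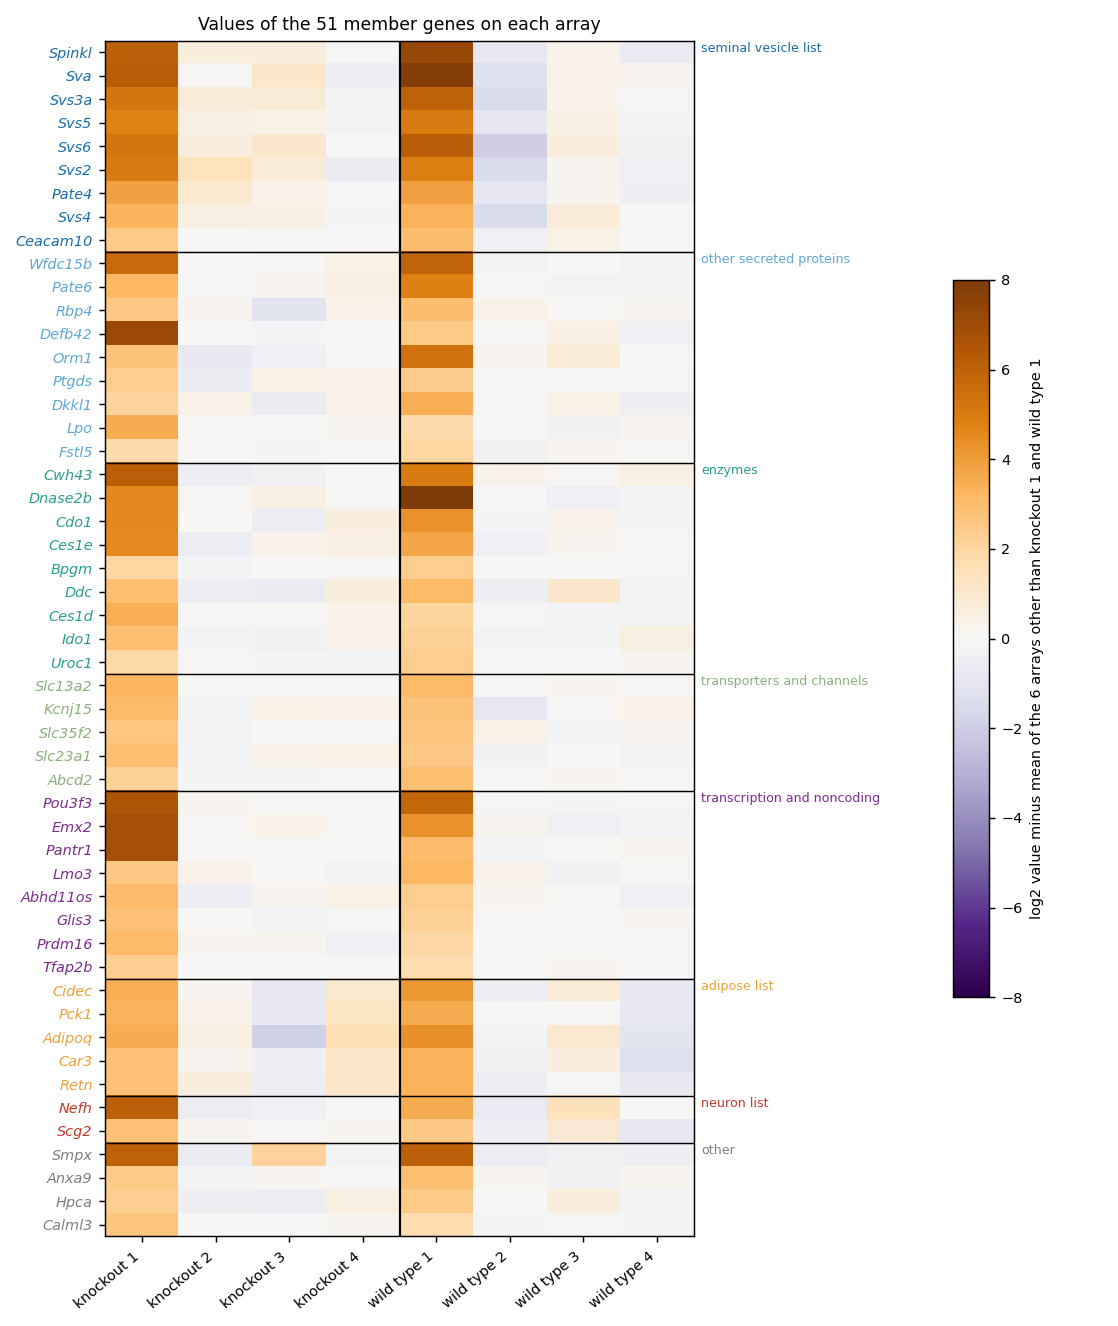
Values of the 51 member genes on each of the 8 arrays, at the brightest member probe set of each gene, as the log2 value minus the mean of the 6 arrays other than knockout 1 and wild-type 1; genes run down the page by role and arrays across it. Knockout 1 and wild-type 1 are high in every row because the rule chose the rows so, while the range over the 6 other arrays has a median of 1.01 in the 61 member probe sets.

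All 9 genes of a 12-gene seminal vesicle list that were measured by a probe set of their own were members, and they held 15 of the 61 probe sets. This list and those below were chosen with earlier results of these data known. Counts over them are therefore a description and no independent support. At the brightest probe set of each gene, the difference between the 2 arrays and the other 6 had a median of 4.97, or 31.3-fold. *Svs1*, *Svs3b* and *Serpine2*, the other genes of that list, were not analysed here under a symbol of their own. *Svs2*, which encodes the main structural protein of the copulatory plug, was at 14.08 on knockout 1 and 13.98 on wild-type 1, against 10.49, 9.83 and 8.47 on knockout 2, 3 and 4 and 7.54, 9.28 and 8.73 on wild-type 2, 3 and 4. The other 6 arrays themselves covered a wide range, and the genotypes overlapped in it. A dimmer *Svs2* probe set had the widest gap of all, 7.98, with 12.87 on knockout 1 and 12.26 on wild-type 1, against 3.26 to 4.28 on the other 6.

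*Svs5* and *Svs6* encode seminal vesicle secretory proteins, and their promoters were 93.3% identical. *Svs5* was at 14.21 on knockout 1 and 14.46 on wild-type 1, against 9.92, 9.80 and 9.19 on the other knockout arrays and 8.53, 9.88 and 9.17 on the other wild-type arrays. All 5 *Svs5* probe sets were members, with gaps of 3.49 to 6.39. *Svs6* was at 13.33 on knockout 1 and 14.32 on wild-type 1, against 8.76, 9.20 and 8.13 on the other knockout arrays and 6.17, 8.71 and 7.86 on the other wild-type arrays. Probe sets of close gene copies may bind transcripts of both, and whether these do was not tested, so the share of each is uncertain. The same holds for *Svs3a*, a substrate of the prostate transglutaminase, and its copy *Svs3b*, whose promoters were 97.6% identical. *Svs3a* was at 13.18 on knockout 1 and 13.95 on wild-type 1, against 7.81 to 8.79 on the other knockout arrays and 6.50 to 8.25 on the other wild-type arrays, and 2 probe sets that carry both symbols had gaps of 5.61 and 4.55.

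*Svs4*, which encodes a small secretory protein of the vesicle, was at 13.97 on knockout 1 and 14.04 on wild-type 1, against 11.19, 11.17 and 10.50 on the other knockout arrays and 9.20, 11.38 and 10.66 on the other wild-type arrays. *Pate4*, which encodes the caltrin-like protein SVS VII that binds sperm, was at 14.07 on knockout 1 and 14.13 on wild-type 1, against 11.19, 10.58 and 10.15 on the other knockout arrays and 9.34, 10.39 and 9.81 on the other wild-type arrays. Both probe sets were above the array median in all 8 prostates, so the 2 arrays differed from the rest in degree. *Spinkl*, a Kazal-type inhibitor homologue that binds sperm, and *Sva*, the seminal vesicle autoantigen, reached lower values on the other arrays. *Spinkl* was at 11.61 on knockout 1 and 12.84 on wild-type 1, against 6.27, 6.19 and 5.52 on the other knockout arrays and 4.78, 5.88 and 4.91 on the other wild-type arrays. *Sva* was at 11.76 on knockout 1 and 13.47 on wild-type 1, against 5.69, 6.69 and 5.13 on the other knockout arrays and 4.46, 5.93 and 5.84 on the other wild-type arrays. *Ceacam10*, a secreted member of the carcinoembryonic antigen family, had the smallest gap of the list at its brightest probe set, 2.10, and 3.29 at another.

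The 9 genes also varied together on the arrays that the rule pooled. Wild-type 2 was the lowest of the other 6 arrays in 9 of 9, and the highest was knockout 2 in 4, knockout 3 in 3 and wild-type 3 in 2. Averaged over the list after subtracting each gene's mean, the level was 3.42 on knockout 1, -0.64, -0.63 and -1.45 on knockout 2, 3 and 4, 4.03 on wild-type 1, and -2.41, -0.87 and -1.45 on wild-type 2, 3 and 4. The arrays therefore did not fall into a high and a uniform low class. The values of the other 6 spread over 2.18 at the median gene of the list, against 1.01 at the median member and 0.38 at the median of all probe sets.

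**Figure D2:**
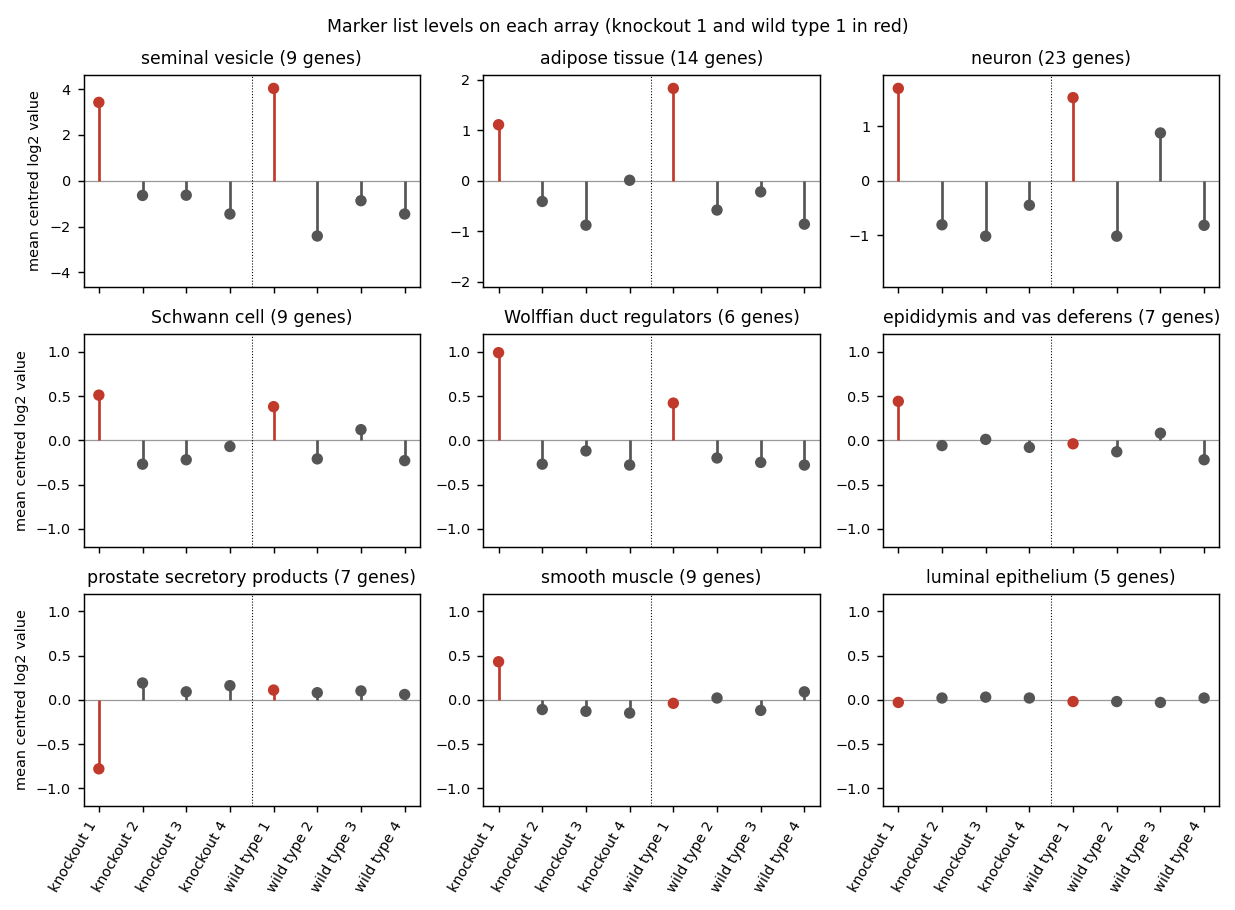
Mean log2 value of 9 marker gene lists on each array after the mean of each gene over the 8 arrays was subtracted. Knockout arrays are left of the dotted line and wild-type arrays right of it, with knockout 1 and wild-type 1 in red. The vertical scales differ between panels, also within the top row. The seminal vesicle, adipose and neuron lists are high on both red arrays, the neuron list is also high on wild-type 3 (0.88), and the prostate secretory list is low on knockout 1 alone (-0.78).

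A group of 9 other members encode secreted proteins, with gaps of 1.56 to 5.27. *Wfdc15b*, a whey acidic protein-type protease inhibitor, was at 12.31 on knockout 1 and 12.51 on wild-type 1, against 6.65, 6.68 and 7.04 on the other knockout arrays and 6.37, 6.56 and 6.40 on the other wild-type arrays. It was almost flat over the 6. *Pate6*, of the same Ly6-fold family as *Pate4*, was at 7.47 on knockout 1 and 9.20 on wild-type 1, against 4.25 to 4.80 on the other knockout arrays and 4.13 to 4.24 on the other wild-type arrays. *Defb42*, a beta-defensin gene, was far higher on one of the 2 arrays, with 10.93 on knockout 1 and 6.29 on wild-type 1, against 3.71 to 3.86 on the other knockout arrays and 3.50 to 4.32 on the other wild-type arrays. *Orm1*, the acute-phase plasma glycoprotein orosomucoid, went the other way, with 7.87 on knockout 1 and 10.57 on wild-type 1, against 4.44 to 5.27 on the other knockout arrays and 5.10 to 5.96 on the other wild-type arrays. *Rbp4*, the retinol carrier of plasma, *Ptgds*, the lipocalin-type prostaglandin D synthase, *Lpo*, the antimicrobial lactoperoxidase, *Dkkl1* and *Fstl5* complete the group, with gaps of 2.19, 1.91, 1.61, 1.68 and 1.56.

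Enzymes made up 9 member genes, with gaps of 1.64 to 4.51. *Cwh43*, whose yeast homologue remodels the lipid of GPI anchors, led them, with 11.23 on knockout 1 and 10.17 on wild-type 1, against 4.67, 4.91 and 5.05 on the other knockout arrays and 5.43, 5.25 and 5.66 on the other wild-type arrays. *Dnase2b*, an acid nuclease known for clearing DNA from lens fibres, was at 8.66 on knockout 1 and 12.82 on wild-type 1, against 4.14, 4.56 and 4.14 on the other knockout arrays and 4.02, 3.73 and 3.82 on the other wild-type arrays. *Cdo1*, the cysteine dioxygenase of taurine synthesis, was at 12.80 on knockout 1 and 12.47 on wild-type 1, against 7.65 to 8.76 on the other knockout arrays and 8.01 to 8.44 on the other wild-type arrays. *Dnase2b* was near the floor on the 6 arrays, where it averaged 4.07. *Cwh43* averaged 5.16 there, and 4.88 on the knockout arrays among them, which is also close to the floor. *Ces1e* and *Ces1d* encode carboxylesterases, and *Ces1e* was at 9.75 on knockout 1 and 8.93 on wild-type 1, against 4.68 to 5.66 on the other knockout arrays and 4.85 to 5.40 on the other wild-type arrays. *Bpgm*, *Ddc*, which makes dopamine and serotonin from their amino acid precursors, *Ido1*, which opens the ring of tryptophan, and *Uroc1*, of histidine breakdown, had gaps of 1.90, 1.86, 1.65 and 1.64.

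A group of 5 genes encode transporters and channels. *Slc13a2*, the sodium-coupled carrier of citrate and other dicarboxylates, was at 8.05 on knockout 1 and 7.93 on wild-type 1, against 4.73 to 4.89 on the other knockout arrays and 4.78 to 4.96 on the other wild-type arrays. The spread over the 6 arrays, 0.23, was the smallest of any member. The gaps of the potassium channel gene *Kcnj15*, *Slc35f2*, the vitamin C carrier gene *Slc23a1* and the peroxisomal fatty acid transporter gene *Abcd2* lay between 1.99 and 2.32. For *Abcd2* the member probe set was near the floor on the other 6 arrays, at 2.73 to 3.00, and a brighter probe set had a gap of 0.16. Over the 5 genes of the group, knockout 1 minus wild-type 1 was between -0.79 and 0.40.

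The transcription factor and noncoding members numbered 8. *Pou3f3*, a POU-domain factor of brain and kidney development, was at 11.24 on knockout 1 and 10.51 on wild-type 1, against 4.70 to 4.86 on the other knockout arrays and 4.57 to 4.79 on the other wild-type arrays. Its second probe set was flat, between 5.20 and 5.49 on all 8 arrays, so the difference rests on a single probe set. *Pantr1*, a long noncoding RNA also on chromosome 1, was at 10.12 on knockout 1 and 6.32 on wild-type 1, against 3.22 to 3.37 on the other knockout arrays and 3.14 to 3.50 on the other wild-type arrays. *Emx2*, a homeobox factor without which the Wolffian duct is lost in mice, was at 10.79 on knockout 1 and 8.26 on wild-type 1, against 4.11, 4.31 and 3.91 on the other knockout arrays and 4.13, 3.68 and 3.83 on the other wild-type arrays. It was the sole member among 6 measured Wolffian duct regulators. At their brightest probe sets, the other measured genes of that list (*Pax8*, *Lhx1*, *Hoxa10*, *Hoxa11* and *Hoxd11*) did not lie above the other 6 on both arrays. With wild-type 1 left out, the rule took in *Pax8* at another probe set, at least 1.5 higher on knockout 1 than on the other 6. *Lmo3*, *Glis3*, *Abhd11os*, *Prdm16*, a factor in the choice between brown fat and muscle, and *Tfap2b* had gaps of 1.60 to 2.22. At their brightest member probe sets, 7 of 8 genes of this group were higher on knockout 1 than on wild-type 1, with a median difference of 0.70. At brighter probe sets that were not members, the difference was -0.34 for *Tfap2b* and 0.68 for *Prdm16*.

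Of the 14 measured genes of a 17-gene adipose tissue list, 5 were members and 12 lay above the other 6 on both arrays. *Adipoq*, the fat cell hormone adiponectin, was at 10.72 on knockout 1 and 11.53 on wild-type 1, against 7.73, 5.24 and 8.74 on the other knockout arrays and 7.03, 8.13 and 6.14 on the other wild-type arrays. *Cidec*, a protein of the fat droplet surface, was at 10.01 on knockout 1 and 10.70 on wild-type 1, against 6.71, 5.80 and 7.51 on the other knockout arrays and 6.11, 7.35 and 5.84 on the other wild-type arrays. *Pck1*, an enzyme of glycerol and glucose synthesis, was at 8.39 on knockout 1 and 8.67 on wild-type 1, against 5.33, 4.36 and 6.29 on the other knockout arrays and 4.95, 5.15 and 4.36 on the other wild-type arrays. *Car3*, a carbonic anhydrase abundant in fat and muscle, and *Retn*, the hormone resistin, had gaps of 1.64 and 1.59 at their brightest probe sets. Each of the 5 was lower on knockout 1 than on wild-type 1, with differences of -0.82 to -0.27, and each was highest on knockout 4 among the other 6 arrays and lowest on knockout 3 (3 genes) or wild-type 4 (2 genes). Over the 14 measured genes of the list, knockout 4 was the highest of the other 6 in 7, and the lowest was wild-type 4 in 5 and knockout 3 in 4. The order of the 5 members is not that of the seminal vesicle genes, which were lowest on wild-type 2 in 9 of 9. Among the list genes short of the rule, *Fabp4*, the fatty acid carrier of adipocytes, had a gap of 1.41. *Ucp1*, the defining gene of brown fat, was at 4.62 on knockout 1 and 4.70 on wild-type 1, against 4.17 to 4.66 on the other 6, near the floor on all arrays.

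Of the 23 measured genes of a 24-gene neuron list, 2 were members, the neurofilament gene *Nefh* and the secretory granule gene *Scg2*. *Nefh* was at 11.41 on knockout 1 and 8.89 on wild-type 1, against 4.82, 5.03 and 5.44 on the other knockout arrays and 4.74, 6.84 and 5.39 on the other wild-type arrays. *Scg2* was at 7.08 on knockout 1 and 6.85 on wild-type 1, against 4.47, 4.24 and 4.53 on the other knockout arrays and 3.90, 5.20 and 3.52 on the other wild-type arrays. Wild-type 3 was the highest of the other 6 in both, and it was the highest of the other 6 in 20 of the 23 genes of the list. For 18 of the 23, knockout 1, wild-type 1 and wild-type 3 all lay above the remaining 5 arrays. Neither count was set beside a share of all probe sets, so how unusual they are was not tested. *Vip*, a neuropeptide of pelvic ganglia, was at 11.29 on knockout 1, 10.48 on wild-type 1 and 10.56 on wild-type 3, against 4.62 to 5.89 on the remaining 5. *Th*, the rate-limiting enzyme of noradrenaline synthesis, was at 7.84 on knockout 1, 7.60 on wild-type 1 and 6.17 on wild-type 3, against 4.67 to 5.80. Wild-type 3 therefore kept many of these genes out of the set. Without wild-type 3, the same rule took in 119 genes, 68 of them not among the 51, and 14 of the 68 were on the neuron list. The Schwann cell list had no member, and 6 of its 9 measured genes lay above the other 6 on both arrays.

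The 4 remaining members were *Smpx*, *Hpca*, *Anxa9* and *Calml3*. *Smpx*, which encodes a small protein of striated muscle, was at 10.43 on knockout 1 and 10.47 on wild-type 1, against 3.85, 6.51 and 4.25 on the other knockout arrays and 3.88, 4.15 and 4.01 on the other wild-type arrays. Knockout 3, its highest among the other 6, also had the highest skeletal muscle list, 1.46 over 11 genes. That list was at -0.78 on knockout 1, the lowest of all arrays, and at 0.43 on wild-type 1. It was between -0.39 and -0.04 on the remaining arrays and had no member. The part of striated muscle in the values of *Smpx* was not tested. *Calml3*, a calmodulin-like gene of epithelia, had the smallest gap of the set, 1.51, with *Fstl5* at 1.56 and *Hpca*, a neuronal calcium sensor, *Retn* and a dimmer probe set of *Bpgm* at 1.59. Just outside the rule were *Ephx2*, a lipid epoxide hydrolase gene, at 1.49, *Dbh*, the final enzyme gene of noradrenaline synthesis, at 1.48 and *Bcat1*, of branched-chain amino acid breakdown, at 1.47.

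The name of accessory gland, fat or nerve transcripts covered a minority of the set by the lists used here. The seminal vesicle, adipose and neuron lists held 9, 5 and 2 of the 51 genes, *Emx2* stood on the Wolffian duct list, and 34 genes stood on none of 19 lists. The lists are short, and absence from them does not place a gene in another tissue. *Pbsn* and the luminal epithelium list were high on all arrays. *Pbsn*, the androgen-dependent prostate product probasin, lay between 13.64 and 14.09 on all 8 arrays, and the 5 luminal epithelium genes lay between 12.93 and 14.33 on all arrays. Of the 7 prostate secretory genes measured, 4 had their lowest value on knockout 1. They were *Msmb*, at 11.09 against 14.09 to 14.35 on the other 7 arrays, *Spink1*, at 12.88 against 14.15 to 14.42, *Apof*, at 10.82 against 11.84 to 12.78, and *Azgp1*, at 13.57 against 13.67 to 13.96. Knockout 1 lay within the range of the other 7 arrays for *Pbsn*, *Tgm4* and *9530002B09Rik*. *Spink8*, on the epididymis and vas deferens list, was at 13.01 on knockout 1, against 9.75 to 10.73 on the other 7, while *Gpx5*, a defining epididymis gene, was between 3.65 and 3.98 on all 8. Knockout 1 and wild-type 1 therefore differed in these markers as well as in genotype, and the part of tissue sampling in any difference between these 2 arrays was not tested.

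Between knockout 1 and wild-type 1, with 1 array each and hence no test, the members differed by a median of -0.09. The range was from -4.16 to 4.64, with 25 probe sets higher on knockout 1 and 36 higher on wild-type 1. In 45 of 61 the 2 arrays lay within 1 of each other, whereas 96.6% of all 45037 probe sets did. Knockout 1 exceeded wild-type 1 by 1 or more in 9 probe sets and wild-type 1 exceeded knockout 1 by as much in 7. The 5 widest differences toward knockout 1 were those of *Defb42* (4.64), *Pantr1* (3.80), *Emx2* (2.54), *Nefh* (2.52) and *Lpo* (1.76). The 5 widest toward wild-type 1 were those of *Dnase2b* (-4.16), *Orm1* (-2.70), *Pate6* (-1.74), *Sva* (-1.71) and *Dkkl1* (-1.39). Of the 9 seminal vesicle genes, 8 were higher on wild-type 1, with a median difference of -0.48.

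**Figure D3:**
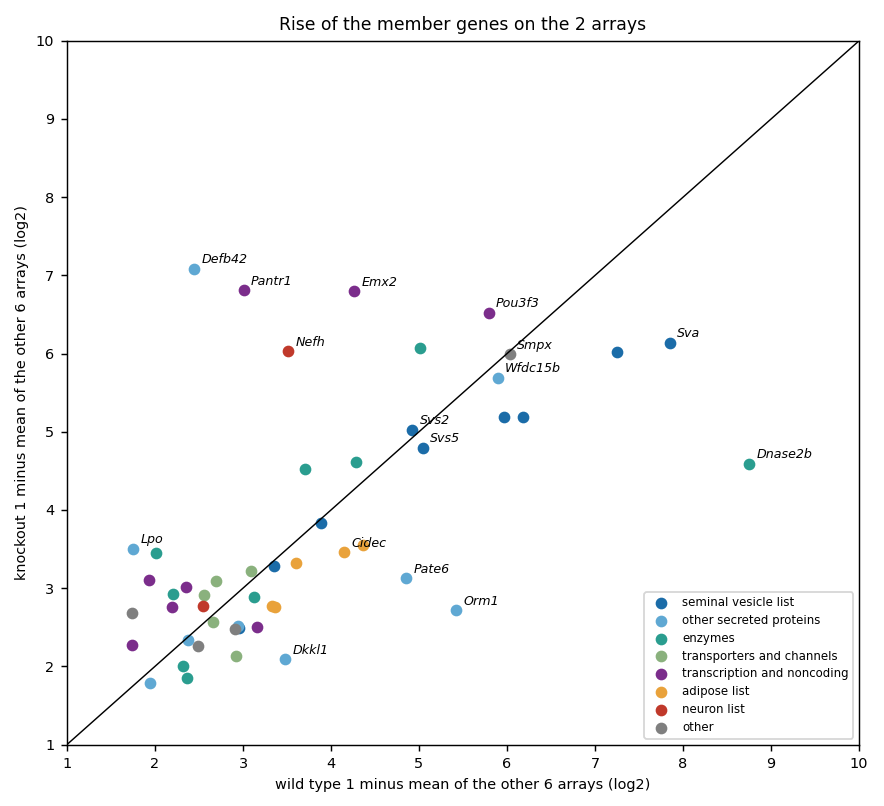
Rise of each member gene on knockout 1 (vertical) and on wild-type 1 (horizontal), each as the log2 value minus the mean of the other 6 arrays, with the line of equal rise and colours by role. *Defb42*, *Pantr1*, *Emx2* and *Nefh* lie above the line by 2.52 to 4.64 and *Dnase2b* and *Orm1* below it, at -4.16 and -2.70, while the 5 adipose genes lie just below it.

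Position on the chromosomes joined some of the members. Chromosome 2 held 8 of the 51 genes, and 10 of 49 protein-coding members had another member among the 10 coding genes on either side. A run on chromosome 2 reads *Wfdc15b*, *Svs2*, *Svs3b*, *Svs4*, *Svs3a*, *Svs6* and *Svs5* in RefSeq order, and each of these but *Svs3b*, which has no probe set of its own, was a member. The genes at both ends of the run were not. *Wfdc15a* was at 5.87 on knockout 1 and 5.57 on wild-type 1, against 5.59 to 5.85 on the other 6, and *Slpi*, a protease inhibitor of mucosal secretions, was at 10.56 on knockout 1 and 8.50 on wild-type 1, against 5.98 to 8.78 on the other 6. *Ces1d* and *Ces1e* are neighbours on chromosome 8. *Ces1f*, the next gene, fell just short with a gap of 1.44, and *Ces1c* and *Ces1g*, on either side of the 3, were between 3.70 and 4.16 on all arrays. *Pate4* and *Pate6* lie 6 coding genes apart on chromosome 9, and *Pate5*, next to *Pate6*, was between 3.40 and 3.74 on all arrays.

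**Figure D4:**
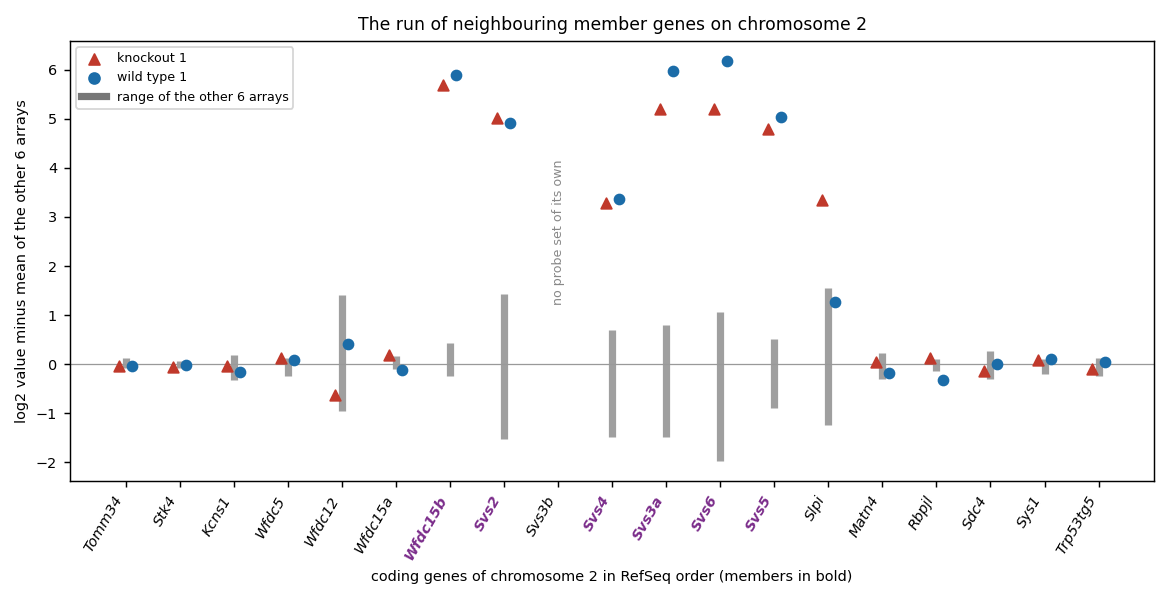
Knockout 1 (triangles), wild-type 1 (circles) and the range of the other 6 arrays (bars) for the coding genes around the SVS run on chromosome 2, as log2 values at the brightest probe set of each gene minus the mean of the other 6 arrays; genes are in RefSeq order and evenly spaced. The 2 arrays rise above the bars from *Wfdc15b* to *Svs5*; *Slpi* is above its bar on knockout 1 alone.

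The genotypes were compared to ask whether the members differ between knockout and wild-type prostate. The rule places 1 high array in each genotype, so on all 8 arrays it fixes a wide spread within both genotypes and gives the comparison little power. With limma on 8 arrays and array day as a second term, 50 of 45037 probe sets (0.111%) were called at an adjusted p under 0.05 and none of the 61 members was (smallest adjusted p = 0.769). At an unadjusted p under 0.05 no member passed, against 5763 of all probe sets (12.8%). The log2 fold changes of the members, knockout over wild type, ran from -1.14 to 1.08 with a median of 0.21, against a median of -0.01 over all probe sets. Their standard errors had a median of 1.08, against 0.099 for all probe sets, and the 95% interval reached a median of 2.51 to either side. Differences of several fold in either direction thus lie within the intervals, and the lack of calls does not show that the genotypes are alike.

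On the 6 arrays without knockout 1 and wild-type 1, 37 of 45037 probe sets (0.0822%) were called by limma and again none of the members (smallest adjusted p = 0.135). At an unadjusted p under 0.05, 4 of 61 members passed (6.56%), against 13.3% of all probe sets. The rule also used these 6 arrays, since it capped their highest value. The members' standard errors had a median of 0.25, against 0.108 for all probe sets. The lower share therefore does not show that members differ less by genotype. The members' log2 fold changes ran from -0.67 to 1.36 with a median of 0.12, against -0.02 over all probe sets. With 1 further array left out their median was between 0.02 and 0.26. The 95% intervals reached a median of 0.60 to either side. *Cwh43* had the smallest p, at a log2 difference of -0.67 (95% interval -0.90 to -0.44, standard error 0.094, limma, adjusted p = 0.135), and its knockout arrays (4.67 to 5.05) all lay below its wild-type arrays (5.25 to 5.66). The log2 difference was 0.95 for *Spinkl* (standard error 0.328, limma, adjusted p = 0.325), 0.94 for *Pate4* (standard error 0.333, limma, adjusted p = 0.33) and 0.40 for *Dnase2b* (standard error 0.158, limma, adjusted p = 0.369). The genotypes did not overlap over the 6 arrays in 4 members (6.56%), *Wfdc15b*, *Cwh43*, *Dnase2b* and *Pate6*, against 20.2% of all probe sets. The same limits hold for this share. *Dnase2b* and *Pate6* averaged 4.07 and 4.34 on the 6 arrays, near the floor, and *Cwh43* averaged 4.88 on its knockout arrays there.

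No member was called on the 6 arrays, and the median fold changes there are given by group. The seminal vesicle genes had a median log2 fold change of 0.86, with 8 of 9 above 0, and the widest was 1.25 at *Svs2* (95% interval -0.35 to 2.85). They share the low value of wild-type 2, found for 9 of 9 genes. Among them, *Spinkl* and *Pate4* passed an unadjusted p under 0.05 (limma). With wild-type 2 left out, their log2 differences were 0.71 and 0.66, against 0.95 and 0.94 on the 6 arrays. The 5 adipose genes were all above 0, with a median of 0.62, and share the high value of knockout 4. The transcription and noncoding group had a median of 0.06 and the transporters and channels one of -0.06.

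**Figure D5:**
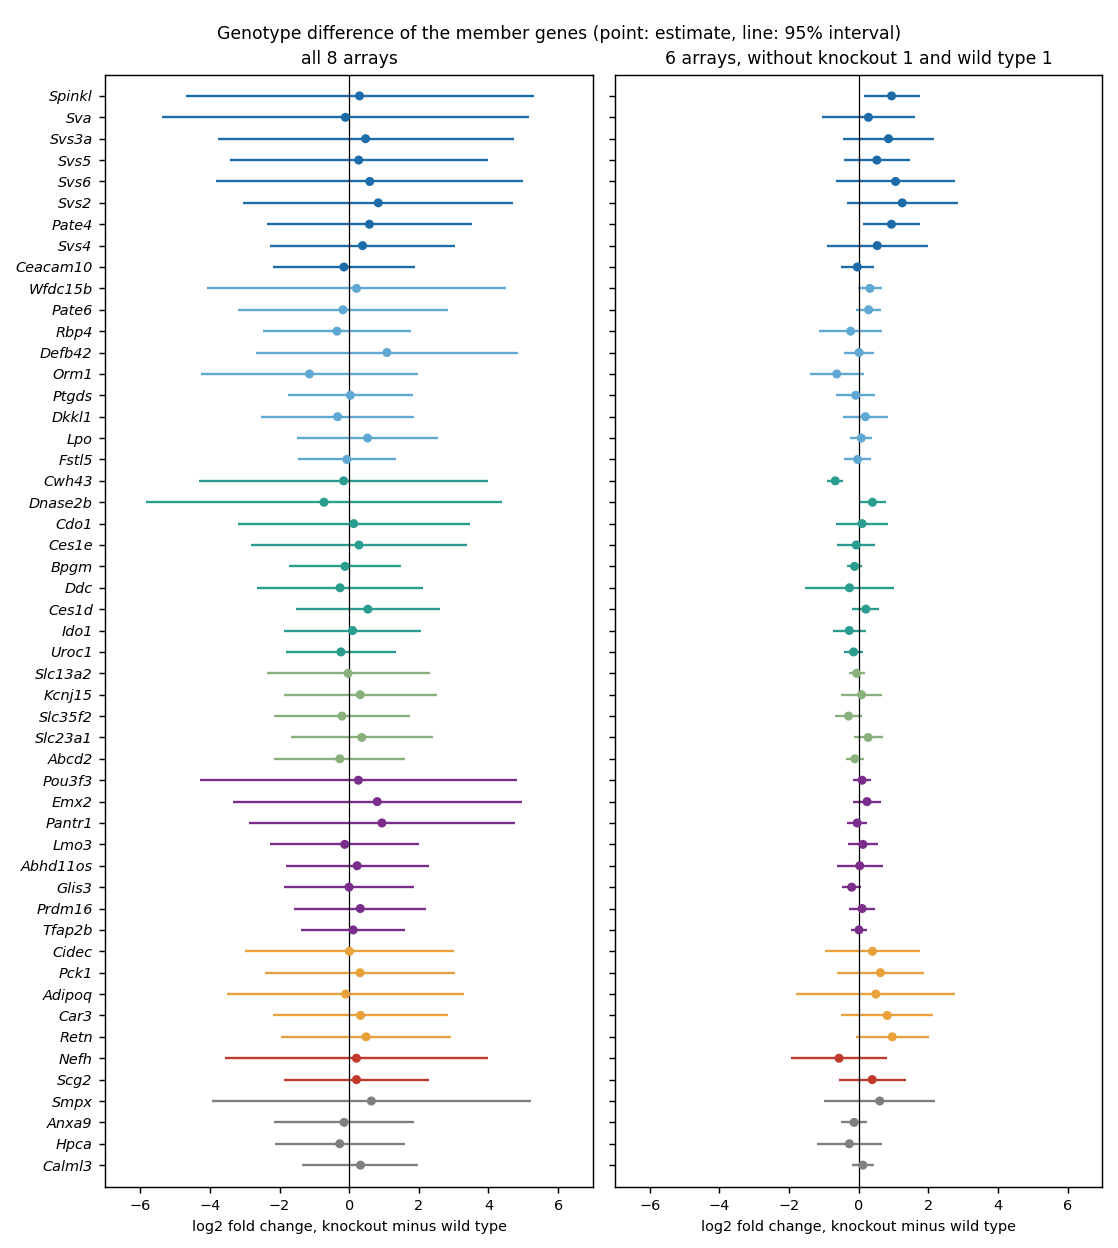
Genotype difference (log2, knockout minus wild type) of each member gene on all 8 arrays (left) and on the 6 arrays without knockout 1 and wild-type 1 (right), with points for the limma estimate and lines for its 95% interval; colours give the role as in the plot of values by array. The intervals are wide on 8 arrays (median 2.51 to either side) and narrower on 6 (median 0.60), and *Cwh43* is the clearest of the 6-array differences at -0.67.

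The sign of the members' genotype difference was opposite on the 2 array dates. On the first date, with wild-type 1, the knockout mean was lower than the wild-type mean in all 61 members, with a median difference of -1.53. On the second, with knockout 1, it was higher in 61 of 61, with a median of 1.66. The medians over all probe sets were 0.005 and -0.033. Both signs follow from the rule, since each date holds 1 of its 2 arrays and they are of opposite genotype.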

How the data were processed

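Affymetrix whole-genome mouse arrays were run on RNA of whole prostate, 4 for *Olfm4*-knockout and 4 for wild-type animals. The labels name Trizol and the methods the RNeasy Plus Mini Kit for RNA extraction. The deposited values are on the log2 scale and were made by the authors with RMA, which corrects background, brings the arrays to 1 distribution by quantile normalization and gives 1 value per probe set. No version of it is given in the sources used here. Such values compress differences near the floor and the ceiling. No detection calls were used. Precision depends on the number of arrays and on the spread between them, and p weighs the genotype difference against that spread.

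The 64 control probe sets were left out. Of the remaining 45037, 34945 had 1 gene symbol in the platform annotation, 932 had several and 9160 had none; 18032 of 18193 genes matched RefSeq, including all 51 members. The genotype contrast was fitted in R 4.3.3 by limma 3.58.1, with lmFit, eBayes and array day as a term (2-sided, Benjamini-Hochberg over all 45037, called at an adjusted p under 0.05). The fit was tested on simulated data. Alternatives were no day term, replicate blocks, the methods' ANOVA, an intensity trend, quantile normalization applied again, a minimum mean of 5, a term for the 2 arrays, other thresholds for the rule, and leaving out each array.

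The genes named are *Olfm4*, members on a marker list, the 15 with the widest gaps, the 3 narrowest and the 3 probe sets just outside, the 5 widest differences between knockout 1 and wild-type 1 in each direction, called members, and members in runs or families; others were chosen after their values were seen, as were the roles. The members and lists were chosen with earlier results of these data known. A gene is given at its brightest member probe set; for 5 genes a brighter probe set was not a member. List levels are averages over genes that were first centred on their own mean. Promoter identities are from global alignment in Biopython 1.88. Promoters came from RefSeq, GRCm38.p6; of the RefSeq gene table only names and the order of neighbours were used, since the files name no build.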

Additional observations from a re-analysis of the deposited data

Results flagged for a closer look

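Within the 4 arrays of a genotype, 1 array stood apart from the other 3 (by the ratio of gap to range, at Dixon's 95% critical value) for several marker lists, and chance alone gives such a result in about 5% of groups. Knockout 1 was the highest knockout array of the seminal vesicle list (3.42), the epididymis and vas deferens list (0.44), the Wolffian duct list (0.99) and the smooth muscle list (0.43). It was the lowest for the prostate secretory list (-0.78) and the urogenital sinus list (-0.13). Wild-type 1 was the highest wild-type array of the Wolffian duct list (0.42), where *Emx2* is the sole member, and knockout 2 was the lowest knockout array of the leukocyte list (-0.41). Among the 61 member probe sets, knockout 1 stood apart as the highest knockout array in 29 and wild-type 1 as the highest wild-type array in 33. The rule used these values, so it fixes the direction of both counts, and the chance rate says nothing about them. The same holds for the seminal vesicle list, whose 9 measured genes are all members, and for the Wolffian duct list, where the member *Emx2* was at 10.79 on knockout 1 and 8.26 on wild-type 1, against 3.68 to 4.31 on the other 6 arrays, and these 3 list values are given as a description. Over all 45037 probe sets, 1 array stood apart in 6.76% of cases for the knockout arrays and 5.88% for the wild-type arrays. The causes were not tested.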

How the results depend on the processing

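No member was called for genotype under any alternative, but the sign of the members' median fold change on 8 arrays turned when some arrays were left out. On 8 arrays, 50 probe sets were called; replicate blocks gave 20, ANOVA without array day 24 and leaving out each array 17 to 43. The members' median log2 fold change of 0.21 ran from -0.92 without knockout 1 to 1.21 without wild-type 1, and was below 0 without wild-type 2, 3 or 4 as well (-0.32, -0.13 and -0.27). On the 6 arrays, 37 were called; no array day gave 62, replicate blocks 17, ANOVA 2, an intensity trend with robust variance 72 and leaving out each array 4 to 24. The members' median there, 0.12, was 0.02 without wild-type 4, 0.06 without knockout 4 and 0.26 without knockout 2, and the value of 0.94 for *Pate4* ran from 0.56 without knockout 2 to 1.33 without wild-type 4. The rule took in 61 probe sets; a threshold of 1 gave 114, one of 2 gave 36, and leaving out each array gave 62 to 213, with 102 without knockout 1, 213 without wild-type 1 and 140 without wild-type 3. Deviations of the same-numbered arrays correlated at 0.336, 0.173, 0.043 and -0.006 for numbers 1 to 4. Knockout 1 correlated at -0.230, -0.082 and -0.163 with wild-type 2, 3 and 4. Number 1 joins the 2 arrays of the rule, and whether replicate numbers pair the arrays was not settled by these values. With replicate blocks no member was called. Signal near the floor limits the gaps of the 18 members whose other 6 arrays averaged under 5.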

Other observations

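Genes high on a single one of the 2 arrays surrounded the set. Leaving out wild-type 1, the rule took in 181 genes, 130 of them not among the 51, and *Spink8* and *Pax8* were among these. *Ces5a*, a carboxylesterase of the epididymis that lies near *Ces1d* and *Ces1e*, was at 10.55 on knockout 1, against 4.80 to 5.30 on the other 7 arrays. Leaving out knockout 1, the rule took in 85 genes, 34 of them not among the 51, and 4 of these were on the adipose list (*Aqp7*, *Fabp4*, *Lep* and *Thrsp*). *Lep*, the fat cell hormone leptin, was at 4.86 on knockout 1 and 6.74 on wild-type 1, against 4.22 to 4.48 on the other 6. Leaving out wild-type 3 brought in *Nefl*, *Nefm*, *Prph*, *Snap25*, *Stmn2*, *Tubb3* and *Uchl1* among 14 genes of the neuron list. *Snap25*, a synaptic vesicle fusion gene, was at 10.32 on knockout 1, 10.21 on wild-type 1 and 9.83 on wild-type 3, against 4.71 to 6.67 on the remaining 5 arrays. Leaving out knockout 2, knockout 3, wild-type 2 or wild-type 4 changed the set little, to 52, 52, 56 and 55 genes.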
